A study of Mus musculus with 27 samples.

Results

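Mouse macrophages grown from bone marrow were compared directly after LPS, the stimulus of the M1 state, and after IL-4, the stimulus of the M2 state, in cells that had not been irradiated. The comparison used 6 of the 27 libraries of the study, 3 with LPS and 3 with IL-4, and 3 further libraries in control medium served only to tell opposed from shared responses. The other 18 libraries came from marrow cells that had received FLASH or standard protons before differentiation and were left out. Genes entered the test when at least 3 of the 6 compared libraries held 1 CPM or more, where CPM is the reads of a gene per 1000000 reads of its library, scaled by the authors between libraries. That filter passed 12033 of the 19069 named genes, and 7036 did not pass.

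All 3 groups came from C57BL/6 mice, with marrow cells taken from femur and tibia, kept in RPMI-1640 with 5% serum and given CSF-1 at 10 ng/ml for 7 days. The LPS group then had LPS at 100 ng/ml for 2 days, the IL-4 group had IL-4 at 20 ng/ml for 2 days, and the control group had plain medium for 2 days. The labels name no engineered allele in any group. CSF-1 culture yields a population that is mostly, not purely, macrophages, and RNA was taken from the whole culture. In such bulk RNA, fewer cells of a type and less RNA per cell cannot be told apart. The labels number the libraries 1 to 3 in each group but do not say if each number is a culture or an animal of its own. The titles also give all libraries of 1 number the same code in every group, without saying what the code stands for. The p-values therefore measure the spread among these libraries alone, which may be technical.

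LPS is a lipid of the outer membrane of Gram-negative bacteria. It binds TLR4 with the cofactors CD14 and MD-2, and 2 adaptor branches follow, one through MyD88 to NF-kappaB and inflammatory cytokines and one through TRIF to IRF3, type I interferon and the interferon-stimulated genes. IL-4 is a cytokine of type 2 immunity. It binds IL-4 receptor alpha, and JAK kinases then phosphorylate STAT6, which drives genes such as Arg1, Retnla and Chil3 in mouse macrophages. Mouse macrophages are classically sorted between the states by the fate of arginine, which Nos2 turns into nitric oxide and Arg1 turns into ornithine.

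Depth, estimated from the step that 1 read makes in the low values, was 21.37 to 25.84 M assigned reads (M, 1000000) in the 9 libraries. Mitochondrially encoded genes took 0.47% to 0.53% of the signal with LPS, 0.96% to 1.21% with IL-4 and 1.19% to 1.35% in control medium. On the first principal component, which held 58% of the variance of log2 values, the LPS libraries lay at -69.5 to -62.9, the IL-4 libraries at 48.7 to 53.9, and the control libraries at 26.95, -4.82 and 22.5. Control library 2 thus stood toward the LPS side, and its summed interferon-stimulated genes reached 3683 CPM, against 1082 and 1298 CPM in the other two. IL-4 library 3 stood apart in a different way, with low cell cycle and granulocyte precursor transcripts and lower Arg1, as given below beside each result. Macrophage markers were present in every library. Csf1r, the CSF-1 receptor that defines the lineage, read 1561, 784 and 2004 CPM with LPS, against 1638, 1398 and 1281 CPM with IL-4. Emr1, which encodes F4/80, read 3779, 1605 and 3074 CPM with LPS, against 829, 417 and 984 CPM with IL-4, and Cd68 read 874, 966 and 916 CPM with LPS, against 549, 518 and 710.3 CPM with IL-4.

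Nos2 and Arg1 separated the groups as the labels say. Nos2, the inducible nitric oxide synthase, read 65.6, 186 and 118 CPM with LPS, against 1.41, 3.19 and 2.99 CPM with IL-4. No library of either group came near the other group, and the log2 difference was 5.28 ± 0.37 (SE) (adjusted p = 9.63e-06). Arg1, the arginase that makes ornithine, read 8.33, 6.36 and 10.5 CPM with LPS, against 713, 653 and 161 CPM with IL-4. IL-4 library 3 was the lowest of its group and still lay far above the LPS libraries (log2 difference -5.59 ± 0.5 (SE), adjusted p = 3.17e-05). In control medium Nos2 read 1.99, 2.09 and 2.52 CPM and Arg1 read 8.9, 9.54 and 5.83 CPM. Nos2 with IL-4 and Arg1 with LPS did not pass the test against control (adjusted p = 0.866 and 0.949).

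Across the table, 4829 of the 12033 genes tested, 40.1%, differed between LPS and IL-4 at an adjusted p below 0.05 in limma. LPS gave the higher level in 2439 genes (20.3%) and the lower level in 2390 (19.9%). These are the shares to hold beside the counts of every gene list below. The median log2 difference over all genes tested was 0.0012. With each column scaled to the same sum instead, the median was -0.0875, with 2099 genes higher and 2869 lower. Differences of at least 2-fold were found in 1265 genes higher (10.5%) and 1006 genes lower with LPS (8.36%). At 4-fold or more the counts were 506 higher (4.21%) and 293 lower (2.43%). Fold changes are on the log2(CPM + 0.5) scale, which understates those of genes near 0. Low genes bear on the filter, because 147 genes passed it only through the 3 LPS libraries and 106 only through the 3 IL-4 libraries, and 133 and 94 of these were called in the direction the filter favours. Genes of this kind had to differ, so those named below are given without a log2 difference or p-value. They are the genes with no library of the other group at 1 CPM or more. Genes with any such library, Scn3a among them, are not in these counts. Il12b, a subunit of IL-12, was among the first kind, with 1.63, 2.21 and 2.92 CPM with LPS and 0.0884, 0.3 and 0.046 CPM with IL-4. Just outside the filter were Il12a, the other subunit, with 1.35, 5.86 and 0.404 CPM with LPS and 0.088, 0.15 and 0.036 CPM with IL-4, and the chemokine Ccl17, with 0.046, 0 and 0 CPM with LPS and 1.86, 1.58 and 0.138 CPM with IL-4.

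Against control medium, LPS gave 1951 genes higher (16.2%) and 1703 lower (14.2%), and IL-4 gave 1220 higher (10.1%) and 1152 lower (9.57%). Both contrasts use the same 3 control libraries, so the classes below are a description. Of the 2439 genes higher with LPS than with IL-4, 1192 (48.9%) were called against control with LPS and not with IL-4, 430 (17.6%) with IL-4 and not with LPS, 252 (10.3%) with both in opposite directions and 50 (2.05%) with both in the same direction. The remaining 515 (21.1%) were called against neither. Of the 2390 genes lower with LPS, 868 (36.3%) were called with LPS and not with IL-4, 603 (25.2%) with IL-4 and not with LPS, 236 (9.87%) in opposite directions and 78 (3.26%) in the same direction, and 605 (25.3%) against neither. The opposed genes numbered 488, which is 4.06% of the genes tested. The shared genes numbered 543, of which 128 differed between the stimuli and 415 did not pass that test. The class counts depended on which libraries entered the fit. With all 27 libraries there were 34 opposed and 285 shared genes, and with 21, without replicate 1 of the irradiated groups, 778 opposed and 885 shared genes. Opposed genes numbered 310 without IL-4 library 1 and 281 without control library 3, and 371 without the control library that stood toward LPS. Shared genes numbered 314 without control library 1, 459 without library 2 and 289 without library 3. The direct counts moved less. Of the fits without 1 library, the fewest were 1939 higher without LPS library 3 and 1855 lower without IL-4 library 1. The counts were 2474 higher and 2426 lower without control library 2, and 2461 and 2525 without IL-4 library 3.

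**Figure D1:**
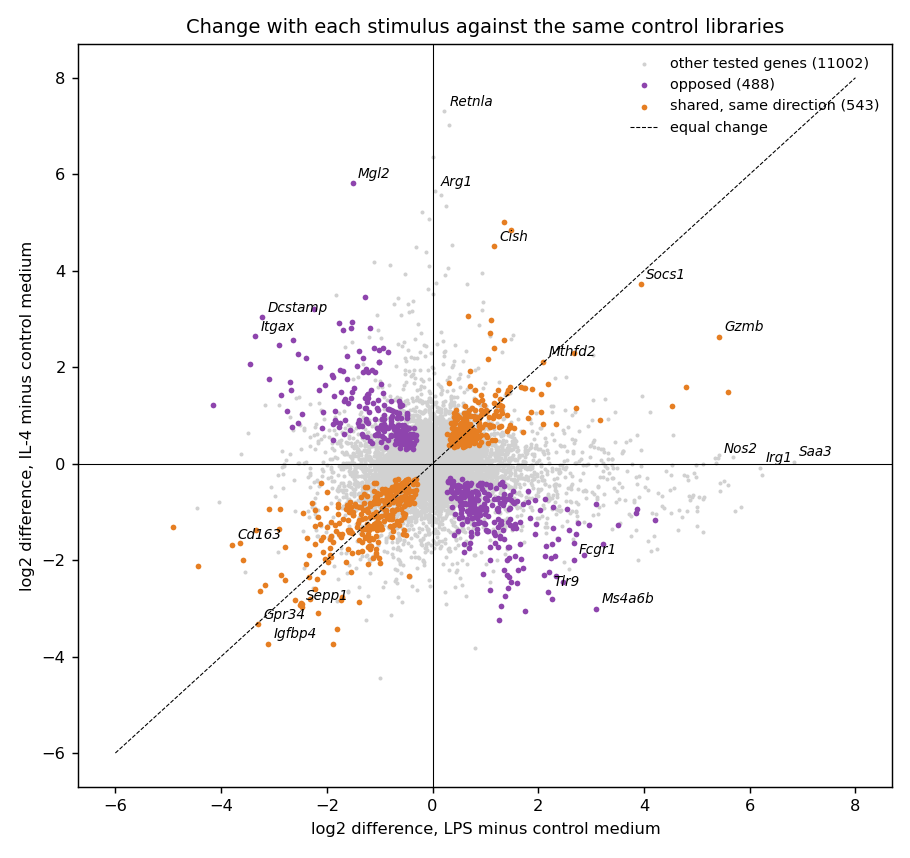
Change of each tested gene with LPS (horizontal axis) and with IL-4 (vertical axis) against the same control libraries, both as log2 differences of log2(CPM + 0.5). Purple points are the 488 opposed genes, orange points the 543 shared genes and grey points all others, and the dashed line marks equal change, along which Socs1 and Gpr34 lie while Nos2 and Retnla lie near the 2 axes.

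Among genes of at least 5 CPM whose groups did not overlap, the 10 largest differences toward LPS were led by the acute phase gene Saa3 and were otherwise interferon-responsive genes, chemokines and membrane proteins. Saa3 read 3651, 2756 and 4235 CPM with LPS, against 36.9, 32 and 25.2 CPM with IL-4 (log2 difference 6.79). Cxcl10, a chemokine that draws T cells through CXCR3, read 289.7, 481 and 384 CPM with LPS, against 5.74, 3.64 and 2.12 CPM with IL-4 (log2 difference 6.53). Ccl5, a chemokine that draws T cells and monocytes, read 1888, 2197 and 2349.8 CPM with LPS, against 28.2, 22.8 and 20.9 CPM with IL-4 (6.46). In each of these the lowest LPS library was far above the highest IL-4 library. Irg1, the enzyme that makes itaconate, read 1639.9, 2368 and 1816 CPM with LPS, against 30.3, 25.3 and 18.1 CPM with IL-4 (6.29). Irf7, which amplifies type I interferon, read 2498, 2438 and 2697 CPM with LPS, against 38.9, 30.8 and 26.4 CPM with IL-4 (6.3). Ifit3, an interferon-induced antiviral protein, read 925, 1052 and 906 CPM with LPS, against 17.2, 25 and 6.76 CPM with IL-4 (6.01). The rest were Oasl1 (6.04), a regulator of Irf7 translation, Ifi44 (6.02), another interferon-stimulated gene, and the membrane proteins Ms4a4c (6.7) and Ms4a6b (6.1). Adjusted p-values of the 10 ranged from 1.98e-07 to 0.000222. Control library 2 was the highest control library for Cxcl10, with 3.64, 28.5 and 10.0 CPM in control medium, and for Irf7, with 36.7, 309 and 42.7 CPM in control medium.

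By the same rule, the 10 largest differences toward IL-4 included secreted and surface products of alternative activation and genes of cell fusion. Mgl2, a galactose-binding lectin of the macrophage surface, read 6.47, 2.16 and 2.97 CPM with LPS, against 769, 543 and 632 CPM with IL-4 (log2 difference -7.32). Retnla, a secreted resistin-like protein, read 36, 17.1 and 21.3 CPM with LPS, against 3892, 3007 and 3064 CPM with IL-4 (-7.09). Rnase2a, a ribonuclease of the eosinophil-associated family, read 4.28, 1.65 and 1.62 CPM with LPS, against 307, 253 and 319 CPM with IL-4 (-6.71). For all 3 the highest LPS library lay far below the lowest IL-4 library. Ocstamp, a membrane protein needed for macrophage fusion, read 1.4, 1.95 and 1.35 CPM with LPS, against 196, 148 and 156 CPM with IL-4 (-6.34). Dcstamp, another fusion protein, read 1.16, 1.57 and 0.809 CPM with LPS, against 115, 130.3 and 132 CPM with IL-4 (-6.26). Itgax, which encodes CD11c, read 21.8, 67.6 and 24.9 CPM with LPS, against 1918, 2078 and 2533 CPM with IL-4 (-6.0). The others were Arg1, the elastase Mmp12 (-5.51), fibronectin (Fn1, -5.45) and the sodium channel subunit Scn3a (-5.42). Scn3a was near the filter with LPS, at 1.26, 0.297 and 0.539 CPM, against 69.2, 31.0 and 51.1 CPM with IL-4. Adjusted p-values of the 10 ranged from 2.74e-07 to 0.000103. CPM is not divided by transcript length, so levels are compared between groups and not between genes.

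**Figure D2:**
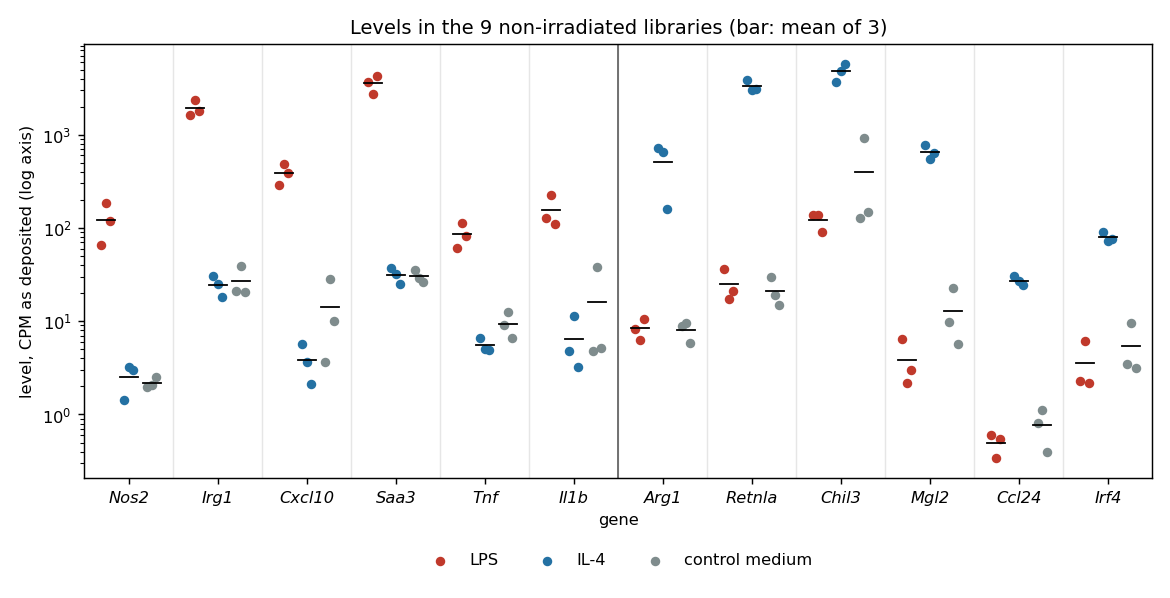
Level of 12 genes in every non-irradiated library, as deposited CPM on a log axis, with LPS in red, IL-4 in blue and control medium in grey and a black bar at the mean of 3. The 6 genes left of the dark line lie higher with LPS and the 6 right of it higher with IL-4, and for Nos2 and Arg1 the opposite stimulus lies near control medium.

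The promoter windows of 2 genes higher with LPS and 2 higher with IL-4 are given because each holds a match to an interferon or STAT element. They run from 250 bases before to 50 bases after the start of transcription, 5′ to 3′, and are RefSeq's for GRCm38.p6. Capitals mark every match to the motifs searched on both strands. These were the interferon-stimulated response element (ISRE, GAAANNGAAA), the STAT element with 3 free bases (TTCNNNGAA) or 4 (TTCNNNNGAA), NF-kappaB (GGGANTTTCC) and AP-1 (TGANTCA).
Cxcl10, chr5:92348840-92349139, minus strand: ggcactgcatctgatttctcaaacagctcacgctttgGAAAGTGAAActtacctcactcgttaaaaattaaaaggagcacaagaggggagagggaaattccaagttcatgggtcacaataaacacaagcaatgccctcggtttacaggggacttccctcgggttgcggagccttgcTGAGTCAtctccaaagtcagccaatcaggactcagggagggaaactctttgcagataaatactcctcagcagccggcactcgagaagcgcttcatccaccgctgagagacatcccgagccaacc
Ifit3, chr19:34583279-34583578, plus strand: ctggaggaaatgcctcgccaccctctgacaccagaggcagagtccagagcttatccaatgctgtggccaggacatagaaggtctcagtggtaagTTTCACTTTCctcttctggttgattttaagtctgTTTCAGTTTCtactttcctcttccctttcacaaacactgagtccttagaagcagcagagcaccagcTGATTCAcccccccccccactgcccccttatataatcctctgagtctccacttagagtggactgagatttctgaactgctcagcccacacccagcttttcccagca
Retnla, chr16:48842359-48842658, plus strand: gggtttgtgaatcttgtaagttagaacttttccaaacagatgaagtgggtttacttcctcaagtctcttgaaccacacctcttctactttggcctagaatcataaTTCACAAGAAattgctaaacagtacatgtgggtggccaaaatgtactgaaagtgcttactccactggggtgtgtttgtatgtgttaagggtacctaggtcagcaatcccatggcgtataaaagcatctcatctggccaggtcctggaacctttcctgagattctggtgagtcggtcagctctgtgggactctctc
Chil3, chr3:106167515-106167814, minus strand: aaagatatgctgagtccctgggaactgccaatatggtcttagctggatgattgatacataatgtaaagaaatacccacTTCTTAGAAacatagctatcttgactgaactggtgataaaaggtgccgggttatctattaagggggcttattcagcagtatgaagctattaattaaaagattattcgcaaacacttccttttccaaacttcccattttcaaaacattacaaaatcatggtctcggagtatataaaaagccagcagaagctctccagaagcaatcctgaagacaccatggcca
Cxcl10 held an ISRE match at -213 to -204 from the start site and an AP-1 match at -74 to -68. Ifit3 held ISRE matches at -156 to -147 and -122 to -113 and an AP-1 match at -56 to -50. Retnla held a STAT match with 4 free bases at -145 to -136, and Chil3 a STAT match with 3 free bases at -172 to -164. Of 12222 windows of 9547 tested genes, 3.31% held the ISRE, 6.81% and 5.48% the STAT element with 3 and 4 free bases, 0.466% the NF-kappaB motif and 5.46% the AP-1 motif. Of 2774 matches, 60 overlapped a match of another motif. A comparison of motif shares between gene sets was void, because 77.2% of the genes at least 2-fold higher and 76.7% of those at least 2-fold lower with LPS had a window, under the 80% required. A match is a description of letters and not of binding. Only the exact letters given were searched, so variants of a motif, such as gggacttccc in the Cxcl10 window, are not marked.

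Enzymes of arginine, itaconate and tryptophan metabolism were divided, with 5 of 13 tested members higher and 3 lower with LPS, against 20.3% and 19.9% of all genes tested. Beside Nos2 and Irg1, LPS was higher for Ass1, which acts in the recycling of citrulline to arginine, at 275, 220.0 and 212 CPM with LPS, against 32.6, 49.9 and 20.8 CPM with IL-4 (log2 difference 2.84 ± 0.3 (SE), adjusted p = 7.48e-05). Beside Arg1, IL-4 was higher for Slc7a2, a transporter of arginine, at 60.7, 54.2 and 47 CPM with LPS, against 602, 811 and 669 CPM with IL-4 (-3.67 ± 0.19 (SE), adjusted p = 2.16e-06). Slc7a2 in control medium read 33.5, 55.4 and 50.3 CPM, close to the LPS libraries. Il4i1, an amino acid oxidase named for its induction by IL-4, read 2.7, 2.76 and 0.989 CPM with LPS, against 13.4, 10.4 and 9.15 CPM with IL-4 (-2.19 ± 0.44 (SE)).

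Cytokine genes were higher with LPS, 13 of 16 tested members, against 20.3% of all genes tested. The other 3 did not pass the test, and the median log2 difference was 2.35. Of the 13, 4 passed the filter only through the LPS libraries, among them Il10 and Il12b, and 9 of the other 12 members were higher. The count was 8 without LPS library 1 and 8 without LPS library 2. Those 4 members fell below the filter without any one LPS library and could not be tested there. Their 4 lost calls were thus fixed by the filter. Il1b, the pyrogenic cytokine matured by the inflammasome, read 127, 227 and 112 CPM with LPS, against 4.82, 11.3 and 3.22 CPM with IL-4. LPS library 2 was the highest and the groups did not overlap (log2 difference 4.59 ± 0.73 (SE), adjusted p = 0.000882), and the call was lost with all 27 libraries in the fit. Tnf read 60.3, 114 and 81.3 CPM with LPS, against 6.63, 4.99 and 4.92 CPM with IL-4 (3.8 ± 0.28 (SE), adjusted p = 1.08e-05). Il10, the anti-inflammatory cytokine, read 11.6, 24.5 and 9.66 CPM with LPS, against 0.795, 0.789 and 0.46 CPM with IL-4. Tnfsf10, the death ligand TRAIL, differed by 3.92. Il6 did not pass the filter, and read 0.326, 2.71 and 0.944 CPM with LPS, against 0.088, 0.376 and 0 CPM with IL-4. Il18 and Il23a stayed under 1 CPM in every library.

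Among CC chemokines 7 of 12 were higher and 4 lower with LPS, and among CXC chemokines 6 of 11 were higher and the other 5 did not pass, with 1 of these lower without IL-4 library 3 or without control library 2. Ccl12, a monocyte attractant, read 71.9, 133 and 82 CPM with LPS, against 2.08, 3.04 and 1.06 CPM with IL-4 (log2 difference 5.26). Cxcl11, a CXCR3 ligand like Cxcl10, read 23.2, 29.8 and 26.2 CPM with LPS, against 0.221, 0.188 and 0.23 CPM with IL-4, and passed the filter only through the LPS libraries. Cxcl9, the third CXCR3 ligand, read 14.2, 16.5 and 10.6 CPM with LPS, against 1.68, 2.18 and 0.322 CPM with IL-4 (3.06 ± 0.8 (SE), adjusted p = 0.0128, not called with all 27 libraries in the fit), with one control library at 17.7 CPM. On the IL-4 side stood Ccl22, a ligand of CCR4, which read 5.68, 11.5 and 3.91 CPM with LPS, against 190.2, 171 and 58.2 CPM with IL-4 (-4.17 ± 0.53 (SE)), where IL-4 library 3 was again the lowest of its group. Ccl9 differed by -1.29. Ccl24, the eosinophil attractant eotaxin-2, read 0.605, 0.339 and 0.539 CPM with LPS, against 30.6, 27.2 and 24.2 CPM with IL-4, and passed the filter only through the IL-4 libraries. Ccl8, a monocyte and T cell attractant, was above control with both stimuli and more so with LPS, at 62.6, 109.6 and 82.1 CPM with LPS, 4.07, 4.43 and 4.55 CPM with IL-4 and 0.959, 2.05 and 0.87 CPM in control medium. Of the chemokine receptors, 5 of 10 were higher with LPS, with the decoy-like receptor Ccrl2 at 2.73 and Ccr7 at 2.11, and 3 were lower, Ccr1 (-1.14), Ccr2 (-0.89) and Ccr3 (-0.8). One of the higher members, Cxcr3, passed the filter only through the LPS libraries. The call of Ccr3 was lost without any one of the LPS libraries, IL-4 library 1 or IL-4 library 2, and that of Ccr2 without LPS library 3 or IL-4 library 1, and all 3 lower calls were lost with all 27 libraries in the fit. The higher count was 3 without LPS library 2, where Cxcr3 could not be tested.

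Effectors of alternative activation were lower with LPS in 19 of 23 tested members, the other 4 did not pass, 2 of the lower members passed the filter only through the IL-4 libraries, and the median log2 difference was -4.38. Their summed level was 1356, 1847 and 1556 CPM with LPS, against 15626, 16142 and 17016 CPM with IL-4 and 2413, 3222 and 2132 CPM in control medium. Chil3, the secreted chitinase-like protein Ym1, read 138, 136 and 90.4 CPM with LPS, against 3716, 4809.9 and 5771 CPM with IL-4 (log2 difference -5.29 ± 0.63 (SE), adjusted p = 0.00016). Its copy Chil4 is nearly identical in sequence, so reads may be split between them. Pdcd1lg2, the inhibitory ligand PD-L2, read 1.07, 2.04 and 0.315 CPM with LPS, against 43.9, 44.4 and 64.3 CPM with IL-4 (-5.09 ± 0.42 (SE)). Mrc1, the mannose receptor CD206, read 169, 86.4 and 196 CPM with LPS, against 1083, 1021 and 920.0 CPM with IL-4 (-2.82 ± 0.28 (SE), adjusted p = 5.09e-05). Mrc1 in control medium read 745, 752 and 534 CPM, and LPS differed from control by -2.23 (adjusted p = 0.000388) and IL-4 by 0.59 (adjusted p = 0.167). The direct call of Mrc1 was lost with all 27 libraries in the fit. Retnla and Arg1 had the reverse arrangement, with LPS differing from control by 0.22 and 0.05 on the log2 scale and IL-4 by 7.31 and 5.65. Genes of cell fusion and of the osteoclast type were lower with LPS in 7 of 12 and higher in 1, Nfatc1 (0.61, adjusted p = 0.0113), a transcription factor of the osteoclast. Atp6v0d2, a proton pump subunit also tied to fusion, read 119, 165 and 160.5 CPM with LPS, 1368, 1915 and 1697 CPM with IL-4 and 979, 623 and 867 CPM in control medium, with the stimuli on opposite sides of control.

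All 31 interferon-stimulated antiviral genes tested were higher with LPS, with a median log2 difference of 3.96. Their sum was 17562, 21020.4 and 17895 CPM with LPS, against 1005, 1250.4 and 662 CPM with IL-4. Of the interferon-inducible GTPases, which attack the vacuoles of intracellular microbes, 14 of 15 were higher (median 3.74) and the other did not pass. Iigp1 read 465, 562 and 542 CPM with LPS, against 11.3, 46.2 and 3.77 CPM with IL-4 (log2 difference 5.29 ± 0.81 (SE), adjusted p = 0.000676). IL-4 library 2 stood above the other IL-4 libraries in this group, with a summed level of 887 CPM against 307 and 182 CPM, and remained below every LPS library. Tgtp1 (5.83) and Tgtp2 (5.69) are near-identical copies whose reads the quantification could divide between them. Interferon regulatory factors were higher in 5 of 8 and lower in 1. Irf1 differed by 2.24, and Irf9, a DNA-binding factor of the interferon response, by 1.5. Irf4, a factor that acts after IL-4, was the lower member, at 2.28, 6.11 and 2.2 CPM with LPS, against 89.7, 72.6 and 76.2 CPM with IL-4 (-4.44 ± 0.43 (SE), adjusted p = 5.14e-05). Stat2, which acts with Irf9, differed by 3.42.

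NF-kappaB subunits and their feedback inhibitors were higher with LPS in 15 of 17 and lower in 1 (median log2 difference 2.32). Nfkbiz, an atypical inhibitor that works in the nucleus, read 45.1, 66.9 and 38.1 CPM with LPS, 3.54, 2.55 and 2.3 CPM with IL-4 and 7.37, 17.8 and 7 CPM in control medium. LPS and IL-4 lay on opposite sides of control for it, and the log2 difference between them was 3.92 ± 0.35 (SE) (adjusted p = 3.05e-05). Irak3, which restrains signalling from toll-like receptors, read 190.2, 178 and 181 CPM with LPS, against 14.5, 17.6 and 15.9 CPM with IL-4 (3.48 ± 0.23 (SE)). Traf1 differed by 2.96, not called with all 27 libraries in the fit. Tnip3, a binding partner of the inhibitor A20, was the lower member, at 32.9, 45 and 31.2 CPM with LPS, against 71.6, 88.6 and 93.6 CPM with IL-4 (-1.22 ± 0.19 (SE), adjusted p = 0.000691). Its control libraries read 27.1, 21.5 and 18 CPM, below every stimulated library.

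In the IL-4 receptor, JAK, STAT and SOCS list, 12 of 21 members were higher with LPS and 3 lower. The receptor chain Il4ra itself was higher with LPS, at 136, 132 and 104 CPM with LPS, 28, 29.6 and 25 CPM with IL-4 and 50.7, 52.7 and 53.6 CPM in control medium (log2 difference 2.15 ± 0.12 (SE), adjusted p = 2.80e-06). The stimuli moved it in opposite directions against control, 1.23 with LPS and -0.92 with IL-4. Stat6, the factor IL-4 activates, did not pass the test, at 240.4, 277 and 273 CPM with LPS, against 199, 183 and 267 CPM with IL-4 (0.3 ± 0.14 (SE), 95% interval -0.02 to 0.62, adjusted p = 0.125). Feedback inhibitors of cytokine receptors differed in both directions. Socs3 read 137, 249 and 147 CPM with LPS, against 7.07, 8.56 and 4.83 CPM with IL-4 (4.58 ± 0.29 (SE)). Socs2 read 1.54, 5.18 and 1.57 CPM with LPS, against 36.1, 34.5 and 39.3 CPM with IL-4 (-3.69 ± 0.38 (SE)), and Cish read 3.4, 2.16 and 5.35 CPM with LPS, 39.9, 35 and 43.6 CPM with IL-4 and 1.23, 1.86 and 0.826 CPM in control medium (-3.34 ± 0.31 (SE)). Cish was above control with both stimuli (1.16 with LPS, adjusted p = 0.0194, and 4.51 with IL-4), a class lost without LPS library 3 or control library 1 or 3. Socs1 was above control with both, at 22.3, 56.4 and 22.5 CPM with LPS, 30.6, 18.4 and 31.8 CPM with IL-4 and 1.34, 3.54 and 0.609 CPM in control medium, and the direct difference of 0.22 ± 0.5 (SE) did not pass (95% interval -0.91 to 1.35, adjusted p = 0.764). Tyk2 is listed at 0 in 8 of the 9 libraries, so its value was not used.

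Lineage transcription factors went both ways, 7 of 19 higher and 8 lower with LPS, against 20.3% and 19.9% of all genes tested. Batf2 (2.73) and Batf (2.33, not called with all 27 libraries in the fit) were higher with LPS and Batf3, of the same family, was lower, at 3.07, 2.08 and 2.7 CPM with LPS, against 35.7, 32.6 and 35.1 CPM with IL-4 (-3.5 ± 0.19 (SE), adjusted p = 2.39e-06). Egr2, an early growth response factor used by IL-4, read 2.09, 3.35 and 2.07 CPM with LPS, 80.4, 80.4 and 92.9 CPM with IL-4 and 35.8, 13.9 and 30.1 CPM in control medium. Its LPS libraries were all below and its IL-4 libraries all above the control libraries (-4.85 ± 0.32 (SE) between the stimuli). Bhlhe40 differed by -3.37. Maf, a factor of mature macrophages, read 427, 278 and 353 CPM with LPS, 65.3, 55.2 and 61.9 CPM with IL-4 and 362, 434 and 289.6 CPM in control medium, and its direct difference was 2.51 ± 0.18 (SE), with only IL-4 called against control. Pparg, the nuclear receptor of fatty acid handling, read 23.9, 18.2 and 13.9 CPM with LPS, against 63.6, 69.3 and 70.0 CPM with IL-4 (-1.86 ± 0.25 (SE)).

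Among toll-like receptors and adaptors 11 of 15 were higher with LPS (median log2 difference 1.35). Tlr9, the endosomal receptor for CpG DNA, read 215, 193 and 182 CPM with LPS, 8.35, 5.75 and 5.24 CPM with IL-4 and 27.5, 54.8 and 51.2 CPM in control medium. Its control libraries lay between the groups, and the direct difference was 4.85 ± 0.26 (SE) (adjusted p = 2.39e-06). Tlr2, the receptor for lipopeptides, differed by 4.24, and Cd14, the LPS coreceptor, by 3.37. Cd14 read 407, 154 and 450.3 CPM with LPS, 27.9, 26.6 and 33 CPM with IL-4 and 144, 369 and 144 CPM in control medium, and its difference from control was called with IL-4 (-2.74, adjusted p = 0.00342) and not with LPS (adjusted p = 0.327). Tlr4, the LPS receptor itself, was slightly lower with LPS, at 119, 104 and 119.9 CPM with LPS, against 136, 166 and 148 CPM with IL-4 (-0.39 ± 0.13 (SE), adjusted p = 0.0364), a call that was lost without any one of the LPS libraries, IL-4 library 2, IL-4 library 3 or control library 1 and with all 27 libraries in the fit.

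Antigen presentation separated by class. MHC class I and peptide loading genes were higher with LPS in 16 of 17 (median log2 difference 1.89). Tap1, which carries peptides into the endoplasmic reticulum, read 661, 684 and 723 CPM with LPS, against 110.0, 131 and 62.6 CPM with IL-4 (2.83 ± 0.33 (SE), adjusted p = 0.000129). H2-M3 differed by 2.61 and H2-Q7, which shares sequence with neighbouring Q genes, by 5.6. MHC class II genes were lower with LPS in 6 of 10 and higher in 1. The higher member, H2-Oa, at 2.09, 2.12 and 1.75 CPM with LPS, against 0.309, 0.15 and 0 CPM with IL-4, passed the filter only through the LPS libraries. It could therefore not be tested without any one of them. Cd74, the invariant chain, read 918, 301 and 379 CPM with LPS, 3515, 2919.5 and 3647 CPM with IL-4 and 1125, 2273 and 1651 CPM in control medium (-2.83 ± 0.39 (SE), adjusted p = 0.000377). H2-Ab1 read 293, 92.5 and 135 CPM with LPS, against 1126, 774 and 1069 CPM with IL-4 (-2.66 ± 0.42 (SE)). Ciita, the master switch of class II, read 7.77, 5.13 and 5.35 CPM with LPS, 86.2, 77.8 and 38.3 CPM with IL-4 and 23.7, 27.4 and 73.1 CPM in control medium (-3.31 ± 0.43 (SE)). LPS library 1 was the highest LPS library in each of these. Against control the class II differences of Cd74, H2-Ab1 and Ciita were called with LPS and not with IL-4.

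Ligands that steer T cells were 6 higher and 2 lower with LPS of 12, against 20.3% and 19.9% of all genes tested. The 2 ligands of PD-1 parted. Cd274, which is PD-L1, read 867, 1551 and 968 CPM with LPS, against 98.4, 154 and 99.1 CPM with IL-4 (log2 difference 3.25 ± 0.27 (SE), adjusted p = 2.06e-05), while Pdcd1lg2 was -5.09. Cd86, a ligand of CD28, read 75.8, 76.3 and 84.3 CPM with LPS, 6.81, 7.06 and 3.95 CPM with IL-4 and 13, 66.7 and 16 CPM in control medium (3.66 ± 0.51 (SE)), with control library 2 close to the LPS libraries. Cd200r1, an inhibitory receptor, differed by -1.25. Scavenger and efferocytosis receptors were split, 7 higher and 7 lower of 18. Marco, a class A scavenger receptor that binds bacteria, read 514, 222 and 467 CPM with LPS, against 11.4, 4.62 and 14.4 CPM with IL-4 (5.28 ± 0.62 (SE)). Cd36, which takes up oxidised lipid, read 633, 575 and 653 CPM with LPS, against 3407, 4448 and 4291 CPM with IL-4 (-2.7 ± 0.22 (SE)), and Cd163, the receptor for haemoglobin with haptoglobin, read 0.512, 0.636 and 1.84 CPM with LPS, 9.81, 4.21 and 3.91 CPM with IL-4 and 19.1, 32.8 and 10.4 CPM in control medium, so that every stimulated library lay below the lowest control library. Of Fc gamma receptors and integrins 8 of 12 were higher and 2 lower with LPS, led by Fcgr1, the high-affinity IgG receptor CD64, at 1644, 1569 and 1728 CPM with LPS, 66, 86.6 and 47 CPM with IL-4 and 189.8, 323 and 281 CPM in control medium (4.66 ± 0.24 (SE), adjusted p = 2.07e-06). Complement genes were higher in 11 and lower in 1 of 14, with 1 higher member past the filter only through the LPS libraries. Cfb, a protease of the alternative pathway, read 964, 901 and 1077 CPM with LPS, against 16.3, 14.6 and 17.9 CPM with IL-4 (5.87 ± 0.19 (SE)).

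**Figure D3:**
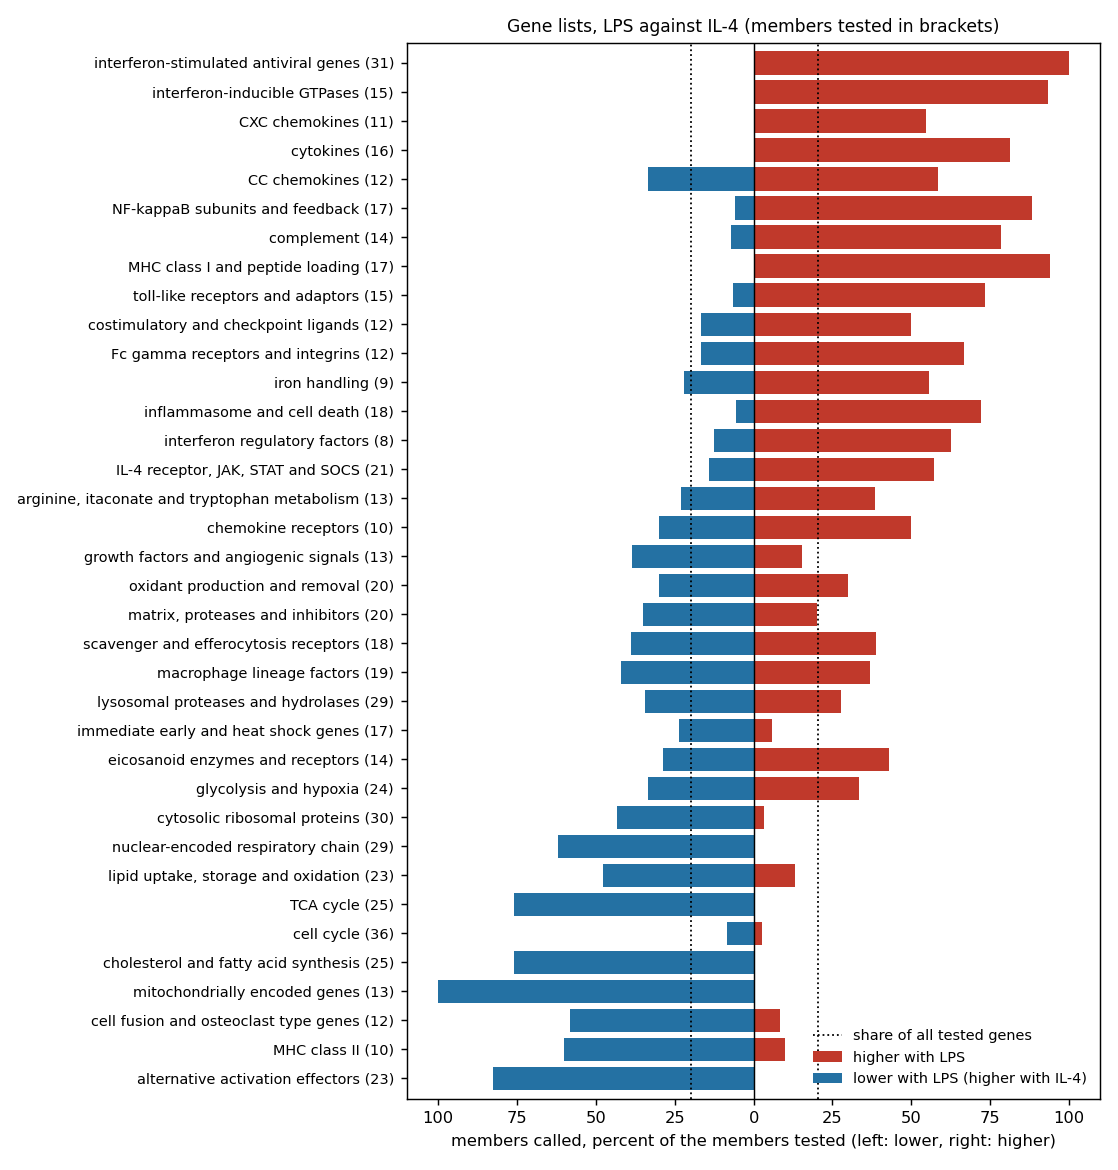
Share of the tested members of each of 36 gene lists that were higher with LPS (red, to the right) or lower (blue, to the left), in percent, ordered by median log2 difference. Dotted lines mark the shares over all genes tested, 20.3% and 19.9%, and the lists run from interferon-stimulated genes at the top to alternative activation effectors at the bottom.

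All 13 mitochondrially encoded genes were lower with LPS, with a median log2 difference of -1.38 and sums of 5615, 5435 and 4968 CPM with LPS, against 9414, 11197 and 11936 CPM with IL-4 and 11941, 12522 and 11319 CPM in control medium. The IL-4 and control libraries overlapped, and the LPS libraries lay below both. Genes of the TCA cycle and citrate export were lower in 19 of 25 (median -0.63) and nuclear-encoded genes of the respiratory chain in 18 of 29 (median -0.40), and the remaining members of both lists did not pass. Against control, IL-4 gave 16 TCA members higher and 1 lower, and LPS gave 3 higher and 6 lower. For the nuclear-encoded list IL-4 gave 21 higher and 0 lower, and LPS gave 5 higher and 2 lower. Among all genes tested, 10.1% were higher with IL-4 and 14.2% lower with LPS against control. Fh1, fumarase, read 25.4, 23.5 and 23.7 CPM with LPS, against 88.3, 81.9 and 61.5 CPM with IL-4 (log2 difference -1.64 ± 0.16 (SE), adjusted p = 4.17e-05). Idh1, which makes NADPH in the cytosol, read 164, 132 and 161 CPM with LPS, 355, 389.6 and 386 CPM with IL-4 and 419, 357 and 420.3 CPM in control medium (-1.31 ± 0.12 (SE)), and only LPS was called against control. Atp5b, the catalytic subunit of ATP synthase, read 682, 877 and 655 CPM with LPS, 1551, 1381 and 1363 CPM with IL-4 and 707, 610.3 and 705 CPM in control medium (-0.97 ± 0.14 (SE)), and only IL-4 was called against control. Ndufa4 was listed at or near 0 in all 9 libraries and was not tested.

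Glycolysis and hypoxia genes were even, 8 higher and 8 lower of 24, against 20.3% and 19.9% of all genes tested. Pfkfb3, whose product activates phosphofructokinase, read 348, 592 and 355 CPM with LPS, against 52.8, 58.9 and 45.9 CPM with IL-4 (log2 difference 2.99 ± 0.29 (SE), adjusted p = 4.79e-05). The lactate exporter Slc16a3 (1.85), the glucose transporter Slc2a3 (1.79) and the hypoxia factor Hif1a (0.85) were also higher with LPS. Pfkp, a subunit of phosphofructokinase itself, was lower, at 109, 118 and 114 CPM with LPS, 339.6, 309 and 347 CPM with IL-4 and 114, 93.4 and 112 CPM in control medium (-1.54 ± 0.11 (SE), adjusted p = 8.29e-06). Eno1 (-0.83) and Pdk1 (-1.58), a brake on pyruvate entry to the TCA cycle, were lower too. Genes of cholesterol and fatty acid synthesis were lower with LPS in 19 of 25 (median -1.15). Their sums were 975, 764 and 997 CPM with LPS, against 2742, 3244 and 1550.4 CPM with IL-4, with IL-4 library 3 the lowest of its group. Sqle, squalene epoxidase, read 21.6, 19.5 and 27.6 CPM with LPS, against 114, 139 and 62.1 CPM with IL-4 (-2.11 ± 0.3 (SE)), and Scd2, a fatty acid desaturase, read 149.6, 95.1 and 172 CPM with LPS, 699, 792 and 409.6 CPM with IL-4 and 190.2, 131 and 162 CPM in control medium (-2.17 ± 0.29 (SE)). Lipid uptake and oxidation genes were lower in 11 and higher in 3 of 23. Lpl, lipoprotein lipase, read 912, 853 and 1050.0 CPM with LPS, against 8206, 8241 and 8159.9 CPM with IL-4 (-3.13 ± 0.29 (SE)), and Acsl1, which activates fatty acids, read 487, 593 and 615 CPM with LPS, against 47, 53.1 and 56.6 CPM with IL-4 (3.42 ± 0.15 (SE)).

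Cytosolic ribosomal proteins were lower with LPS in 13 of 30 (median log2 difference -0.38) and higher in 1, Rps20, whose call was lost without any one of the LPS libraries 1 and 3, the IL-4 libraries or the control libraries 1 and 3 and with all 27 libraries in the fit. Their lower count ranged from 4 without IL-4 library 1 to 21 without LPS library 3, and it was 6 without LPS library 2, 7 without LPS library 1 and 8 without IL-4 library 2 or 3. Rpl10a read 133, 103 and 158 CPM with LPS, against 321, 271 and 394 CPM with IL-4 (-1.32 ± 0.18 (SE), adjusted p = 0.000329). Ribosomal protein genes have many processed copies in the genome that can share their reads.

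**Figure D4:**
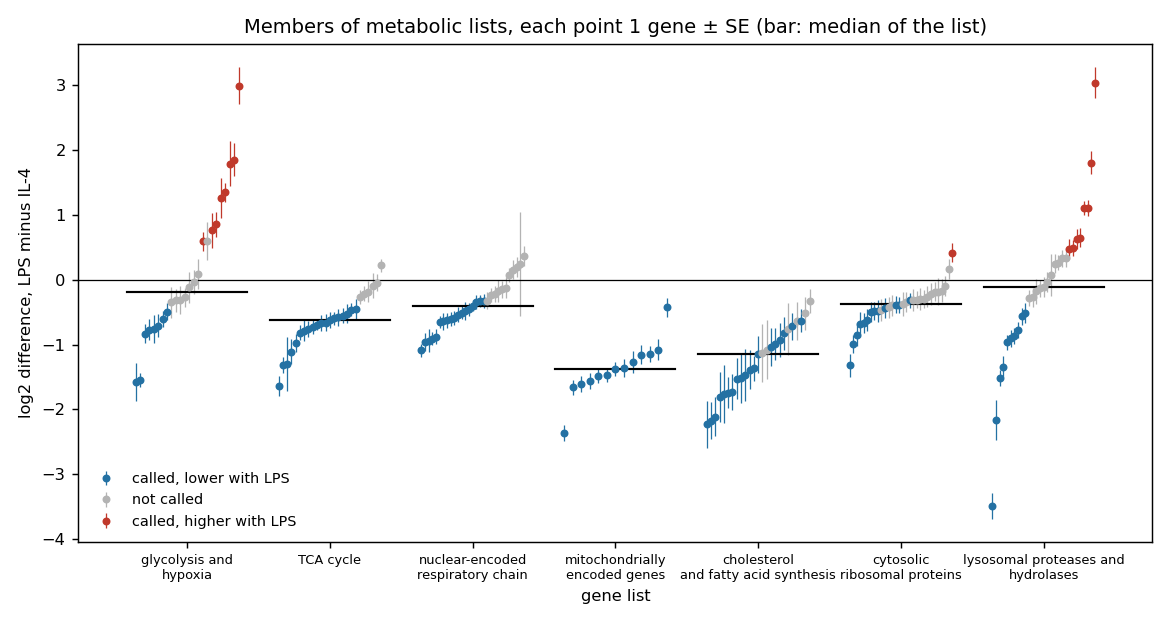
Log2 difference, LPS minus IL-4, of every tested member of 7 metabolic lists, each point 1 gene with its standard error and the bar the median of the list. Red points were called higher, blue points called lower and grey points not called, and all 13 mitochondrially encoded genes lie below 0 while called glycolysis and lysosome genes lie on both sides.

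Lysosomal genes were split, 8 higher and 10 lower with LPS of 29, against 20.3% and 19.9% of all genes tested. Ctsc, the protease that activates granule enzymes, read 2392, 2009.7 and 2143 CPM with LPS, against 285, 319.8 and 203 CPM with IL-4 (log2 difference 3.04 ± 0.25 (SE), adjusted p = 1.79e-05). Ctsk, the bone-degrading cathepsin, read 32.9, 49.6 and 28.3 CPM with LPS, against 159, 164 and 166 CPM with IL-4 (-2.17 ± 0.31 (SE)), and Lipa, lysosomal acid lipase, read 824, 694 and 864 CPM with LPS, 2222, 2335 and 2212 CPM with IL-4 and 2639, 2178 and 2314 CPM in control medium (-1.51 ± 0.13 (SE)). In the eicosanoid list 6 of 14 were higher and 4 lower, and the cyclooxygenases parted. Ptgs2, the inducible form, read 27.3, 95.5 and 26.5 CPM with LPS, against 4.64, 15.1 and 3.95 CPM with IL-4 (2.55 ± 0.62 (SE), adjusted p = 0.0092). Ptgs1, the constitutive form, read 9.22, 12.3 and 7.01 CPM with LPS, 138, 114 and 121 CPM with IL-4 and 31.8, 44.9 and 31.1 CPM in control medium (-3.67 ± 0.21 (SE), adjusted p = 2.71e-06). Its LPS libraries all lay below and its IL-4 libraries all above control. Ptges, which makes prostaglandin E, differed by 2.99, and its call and that of Ptgs2 were lost with all 27 libraries in the fit. Tbxas1, which makes thromboxane, differed by -1.34.

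Oxidant genes were even, 6 higher and 6 lower of 20, against 20.3% and 19.9% of all genes tested. Sod2, the mitochondrial superoxide dismutase, read 409, 544 and 479 CPM with LPS, against 55.2, 53.5 and 54.2 CPM with IL-4 (log2 difference 3.11 ± 0.16 (SE), adjusted p = 2.07e-06). Cybb, the catalytic subunit of the phagocyte oxidase, read 2105, 1685 and 2777 CPM with LPS, 454, 607 and 581 CPM with IL-4 and 1047, 1867 and 1088 CPM in control medium (1.98 ± 0.25 (SE)), and its difference from control was called with IL-4 (-1.24) and not with LPS (adjusted p = 0.0536). Gpx1 differed by -1.06 and Cat, catalase, by -0.94. Iron genes were higher in 5 and lower in 2 of 9. Fth1, the ferritin heavy chain, read 32092, 27773 and 34212 CPM with LPS, 6050.3, 6391 and 5513 CPM with IL-4 and 9704, 14018 and 10626 CPM in control medium (2.39 ± 0.17 (SE)), and Tfrc, the transferrin receptor, read 328, 241 and 383 CPM with LPS, against 1684, 2439 and 1124 CPM with IL-4 (-2.42 ± 0.28 (SE)). The call of Tfrc was lost with all 27 libraries in the fit. Genes of the inflammasome and of cell death were higher in 13 of 18, with the sensor Nlrp3 at 3.4 and Casp4, which binds LPS in the cytosol, at 3.05, and Ripk3, a kinase of necroptosis, was the lower one (-0.59, not called with all 27 libraries in the fit).

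Matrix genes were higher in 4 and lower in 7 of 20, against 20.3% higher and 19.9% lower among all genes tested, and metalloproteinases were called in both directions. Mmp14, anchored in the membrane, read 931, 700.5 and 913 CPM with LPS, 60.8, 32.1 and 44.5 CPM with IL-4 and 134, 312 and 113 CPM in control medium (log2 difference 4.23 ± 0.36 (SE), adjusted p = 2.55e-05). Mmp12, the macrophage elastase, read 164, 464 and 241 CPM with LPS, 9414, 13164 and 13949.9 CPM with IL-4 and 5185, 1447 and 3187 CPM in control medium and Mmp19 read 32.5, 26.9 and 27.5 CPM with LPS, 234, 274 and 237 CPM with IL-4 and 96.1, 48.1 and 58.2 CPM in control medium. For all 3 the control libraries lay between LPS and IL-4. Thbs1, thrombospondin, read 2684, 2569 and 2319.7 CPM with LPS, 151, 94.3 and 115 CPM with IL-4 and 418, 1012 and 478 CPM in control medium (4.41 ± 0.3 (SE)). Growth factors were higher in 2 and lower in 5 of 13, with Vegfa at 1.25, Inhba at 2.13 (not called with all 27 libraries in the fit), Hbegf at -2.7 and Pdgfa at -2.57. Immediate early and heat shock genes were called in 5 of 17, against 40.1% of all genes tested, Junb higher (0.62, a call lost without LPS library 2 or IL-4 library 2 and with all 27 libraries in the fit) and Egr2, Atf3 (-1.56), Jun (-1.06) and Hsp90aa1 (-0.81, named after its value was seen) lower. The higher count was 2 without LPS library 1, LPS library 3 or IL-4 library 3.

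The count of cell cycle genes called depended on a single library. In the fit of all libraries 3 of 36 were lower with LPS, Pcna (-1.81), Cenpa (-1.5) and Ccnd1 (-1.23), and 1 was higher, Ccnd2 (0.99, a call lost without LPS library 1 or 2 or IL-4 library 3 and with all 27 libraries in the fit). That is fewer than the 40.1% of all genes called, although the median log2 difference was -0.67. Without IL-4 library 3, 33 were lower and 0 higher in limma. The list summed to 1073, 1188 and 1008 CPM with LPS, against 2588, 3074 and 1556 CPM with IL-4 and 2215, 1575 and 2056 CPM in control medium. Mki67, a marker of cycling cells chosen here after its values were seen, read 30.0, 27 and 28 CPM with LPS, 51.3, 83.1 and 14.7 CPM with IL-4 and 60.0, 46.5 and 70.4 CPM in control medium. IL-4 library 1 lay within the control range and library 2 above it, and IL-4 library 3 was below every LPS library. Ccnd1, the cyclin that responds to growth signals, did not follow this pattern, at 142, 169 and 152 CPM with LPS, against 363, 283 and 461 CPM with IL-4.

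**Figure D5:**
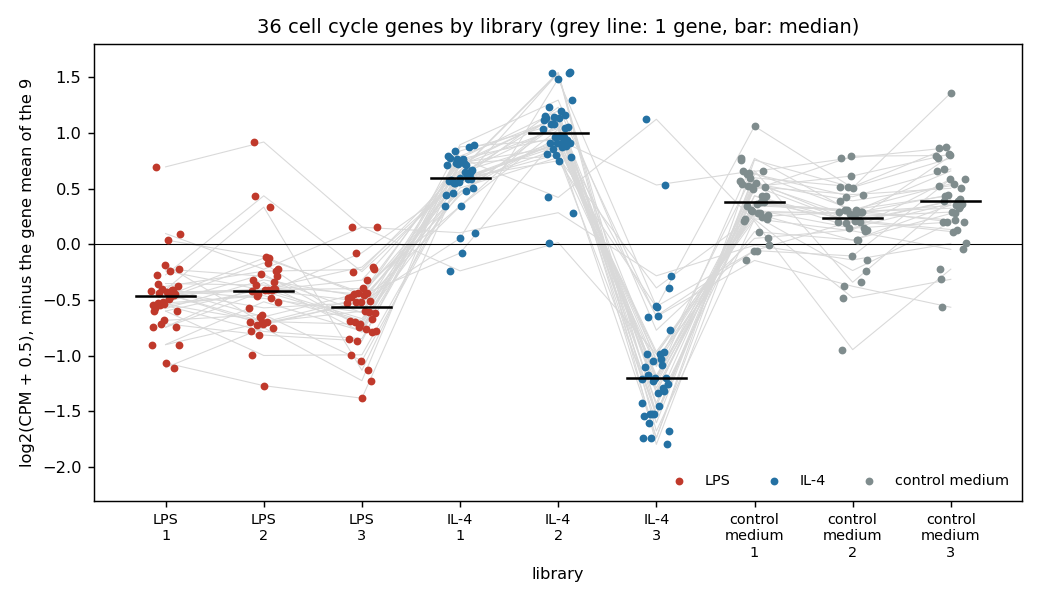
Level of the 36 tested cell cycle genes in each library, as log2(CPM + 0.5) minus the mean of the gene over the 9 libraries, with a black bar at the median and a grey line joining the values of each gene. The medians are -0.46, -0.42 and -0.56 with LPS, 0.594, 1.003 and -1.203 with IL-4 and 0.38, 0.23 and 0.39 in control medium, so IL-4 library 3 lies apart from the other IL-4 libraries.

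Opposed genes moved away from control in different directions with the 2 stimuli. The clearest on the LPS side by the smaller of the 2 changes were Ms4a6b, Marcksl1, Ms4a6c, Lst1, Oas2 and Tlr9. Ms4a6b read 719, 492 and 641 CPM with LPS, 9.9, 6.68 and 8.88 CPM with IL-4 and 48, 169 and 44.1 CPM in control medium. Lst1, a leukocyte transcript of the MHC region, read 169, 172 and 157 CPM with LPS, 6.27, 3.27 and 4.37 CPM with IL-4 and 25.5, 61 and 26.1 CPM in control medium. Marcksl1, an actin-binding substrate of protein kinase C, read 390.1, 203 and 439 CPM with LPS, 13, 9.01 and 9.11 CPM with IL-4 and 36.9, 152 and 35.6 CPM in control medium. In Ms4a6b and Lst1 every control library lay between the groups, and the highest control library was always library 2. On the IL-4 side stood Dcstamp, Itgax, Nes, Angptl2, Gpc1 and Fn1. Itgax read 434, 182 and 529 CPM in control medium, between the levels with LPS and IL-4 given above. Nes, the intermediate filament nestin, read 6.52, 6.58 and 3.33 CPM with LPS, 241, 197 and 197 CPM with IL-4 and 73.1, 10.4 and 57 CPM in control medium, and Angptl2, a secreted angiopoietin-like protein, read 10.8, 7.85 and 6.02 CPM with LPS, 347, 291 and 420.0 CPM with IL-4 and 127, 21.9 and 88.8 CPM in control medium. Here control library 2 was the lowest control library. Of these 12 genes, 10 kept the class whichever of the 9 libraries was left out, and Nes lost it without IL-4 library 1 and Fn1 without LPS library 2 or 3 or control library 1 or 3. With all 27 libraries in the fit Oas2 kept the class and the other 11 lost it.

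Shared genes answered both stimuli in the same direction. Among the rises, Mthfd2, a mitochondrial enzyme of folate metabolism, read 116, 106 and 66.3 CPM with LPS, 65.8, 75.8 and 171 CPM with IL-4 and 24.7, 20.6 and 19.6 CPM in control medium, and its inducer Atf4, a factor of the amino acid response, read 275, 311 and 186 CPM with LPS, 193, 178 and 384 CPM with IL-4 and 95.1, 61.3 and 82.6 CPM in control medium. The direct differences were -0.02 ± 0.34 (SE) (95% interval -0.78 to 0.75) and 0.09 ± 0.31 (SE) (95% interval -0.61 to 0.78), and neither passed the test. IL-4 library 3 was the highest IL-4 library for both. Scimp, a membrane adaptor, read 22.3, 24.1 and 14.8 CPM with LPS, 13.8, 18.8 and 13.5 CPM with IL-4 and 2.19, 2.98 and 3.04 CPM in control medium. Gzmb, granzyme B, rose with both and more with LPS, at 42.7, 31.1 and 42.3 CPM with LPS, 4.15, 14.2 and 2.07 CPM with IL-4 and 0.307, 0.708 and 0.261 CPM in control medium (direct log2 difference 2.79 ± 0.53 (SE), adjusted p = 0.00247). Rgl1 was also above control with both (2.19 with LPS and 1.64 with IL-4). The direct difference of Rgl1 was also called, a call lost without LPS library 1 or 2 or IL-4 library 1 and with all 27 libraries in the fit. Among the falls, Sepp1, the selenium carrier selenoprotein P, read 709, 494 and 929.6 CPM with LPS, 462, 523 and 549 CPM with IL-4 and 4430.2, 3365 and 3981 CPM in control medium. Gpr34, a receptor for lysophosphatidylserine, read 1.68, 1.95 and 1.03 CPM with LPS, 1.24, 1.16 and 2.25 CPM with IL-4 and 19.2, 17.3 and 22.4 CPM in control medium (direct difference 0.01 ± 0.28 (SE), 95% interval -0.61 to 0.63). Cd28 read 12.9, 7.09 and 10.0 CPM with LPS, 17.9, 14.2 and 14.3 CPM with IL-4 and 102, 85 and 109.8 CPM in control medium, and its direct difference of -0.64 lost its call without LPS library 2 or 3, IL-4 library 1 or 2 or control library 1 and with all 27 libraries in the fit, reaching -0.42 without LPS library 2. Igfbp4, which binds insulin-like growth factors, read 16.2, 9.46 and 53.9 CPM with LPS, 27.1, 11.4 and 6.94 CPM with IL-4 and 189.6, 149.9 and 201 CPM in control medium, with LPS library 3 and IL-4 library 1 the highest of their groups. Hpgd, which degrades prostaglandins, and Slc9a9, an endosomal ion exchanger, fell with both as well. Against control, Hpgd differed by -3.16 with LPS and -2.51 with IL-4, and Slc9a9 by -2.6 with LPS and -2.83 with IL-4, on the log2 scale.

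Markers of other cell types were measured beside these results. Among all genes tested 20.3% were higher and 19.9% lower with LPS. Neutrophil and granulocyte precursor markers summed to 538, 385 and 486 CPM with LPS, against 375, 267 and 117 CPM with IL-4 and 670.5, 1273 and 1036 CPM in control medium, and 2 of 14 were called, both higher, Csf3r (2.45) and Lcn2 (2.88, a call lost without LPS library 2 and with all 27 libraries in the fit). Mpo, a granule enzyme of precursors, read 19.3, 7.21 and 30.4 CPM with LPS, against 53.1, 26.3 and 2.07 CPM with IL-4. T and NK cell markers summed to 127 to 159 CPM with LPS, against 17.5 to 50.8 CPM with IL-4 and 25.6 to 181.5 CPM in control medium. Of these markers 4 of 7 were higher and 1 lower. In the LPS libraries most of that sum came from Gzmb and Cd4, the latter at 101, 81.9 and 73.3 CPM with LPS, against 4.42, 23.7 and 8.51 CPM with IL-4. Of the defining CD3 chains, Cd3e read 0.233, 1.27 and 1.26 CPM with LPS, against 0.663, 0.413 and 0.276 CPM with IL-4. Cd3d read 1.16, 0.933 and 1.66 CPM with LPS, against 0.442, 0.638 and 0.506 CPM with IL-4. Neither passed the filter, and Cd3g passed it only through the LPS libraries. Trac and Ncr1 stayed under 1 CPM in all 9 libraries. B lineage markers had 4 of 7 higher, with sums of 119.9 to 127 CPM with LPS, against 32.9 to 77.4 CPM with IL-4 and 136.4 to 166 CPM in control medium. Erythroid and megakaryocyte markers had 4 of 6 higher, at 131 to 196 CPM with LPS, against 35.9 to 77.1 CPM with IL-4 and 137.9 to 220.5 CPM in control medium. Dendritic cell markers had 2 higher and 3 lower of 7. Their sums were 27.2 to 31.7 CPM with LPS, against 67.7 to 73.6 CPM with IL-4 and 47.1 to 66.1 CPM in control medium. Flt3, below the filter, read 0.605, 0.933 and 1.35 CPM with LPS, against 0.088, 0.676 and 0.552 CPM with IL-4. The higher count was 1 without any one of the LPS libraries. Siglech passed the filter only through these and could not be tested there. Eosinophil markers had 2 of 3 lower, with counts of 0 without IL-4 library 1 or 2. Their sums were 18.1 to 20.6 CPM with LPS, against 33.2 to 48.5 CPM with IL-4 and 38.6 to 80.9 CPM in control medium. Siglecf passed the filter only through the IL-4 libraries and could not be tested without any one of them. Mast cell and basophil markers had 0 of 5 called in limma and 0 at an unadjusted p below 0.05. Stromal markers had 1 of 9 called, Alpl, with sums of 36.7 to 161 CPM with LPS, against 56.4 to 169 CPM with IL-4 and 109 to 422 CPM in control medium. Alpl passed the filter only through the LPS libraries and could not be tested without any one of them. Its call was lost without any one of the IL-4 libraries and with all 27 libraries in the fit. The macrophage list itself had 11 of 15 higher with LPS and 1 lower, Tyrobp (-1.1), and summed to 28912 to 47628 CPM with LPS, against 18244 to 19797 CPM with IL-4. In control medium the list summed to 38373 to 41361 CPM, within the range with LPS. Against control, IL-4 gave 10 members lower and 0 higher, and LPS gave 5 higher and 1 lower. Among all genes tested, 9.57% were lower with IL-4 and 16.2% higher with LPS against control. Of the called members, 1 each of the T and NK, B lineage, dendritic, erythroid and stromal lists passed the filter only through the LPS libraries, and 1 of the eosinophil list only through the IL-4 libraries. The part of these cells in the differences was not tested.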

How the data were processed

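RNA of the cultures was sequenced, and the authors deposited 1 table of normalised read counts for 27 libraries, a signal in CPM (reads of a gene per 1000000 of its library) scaled between libraries. Per the submitters' processing notes, kallisto 0.46.1, edgeR 3.36.0 and R 4.0.5 were used, and the genome build named there is GRCh38, although the samples are mouse. Depth was estimated from the smallest steps of the deposited signal. Of the values, 80.87% to 98.1% per library came out as whole reads within 0.01 of a read, so no counts were tested. An exact 0 can be a failed estimate. One entry without a symbol was dropped.

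limma 3.58.1 (R 4.3.3) was fitted to log2(CPM + 0.5) of the 9 non-irradiated libraries with trend and robust moderation, and p-values were adjusted by Benjamini-Hochberg over the 12033 genes tested. The test was checked on simulated data. Members and gene lists were chosen with earlier results of these data known. Named genes were Nos2, Arg1, a short set of effectors, the 10 largest called differences each way (mean of 5 CPM or more, no overlap between groups, no predicted gene models), up to 3 called members of each list each way, and 6 opposed and 6 shared genes each way. Other genes given with values were chosen as background or after their values were seen. Some genes that this rule names are not reported here.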

Additional observations from a re-analysis of the deposited data

How the results depend on the processing

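The direct comparison kept its counts within 1.5 times under every alternative run. Leaving out 1 library gave 1939 to 2474 genes higher and 1855 to 2525 lower with LPS, 281 to 521 opposed and 289 to 594 shared genes. With all 27 libraries in the fit 34 genes were opposed and 285 shared, and with 21 libraries, without irradiated replicate 1, 778 were opposed and 885 shared. The cause was not tested. With each column scaled to the same sum, the median log2 difference of all genes was -0.0875, and 2099 genes were higher and 2869 lower. Under that scaling Atf4, LPS minus IL-4, was -0.00504 and Gpr34, LPS minus IL-4, was -0.0549, the other way from the values above, and neither passed the test. Leaving out 1 library, differences that had not passed the test changed sign for Socs1, Mthfd2, Atf4, Gpr34, Igfbp4 and Slc9a9, with Socs1 at -0.22 to 0.44, Mthfd2 at -0.28 to 0.40, Atf4 at -0.11 to 0.44, Gpr34 at -0.13 to 0.24, Igfbp4, LPS minus IL-4, at -0.0625 to 1.16 and Slc9a9 at -0.17 to 0.81. Over all genes tested, same-numbered libraries did not deviate together (correlations -0.125 to 0.103), so the numbers were not read as pairs. The replicate block gave 2307 higher, 2239 lower, 447 opposed and 473 shared. A correlation over all genes cannot show that no gene list deviates together. The sums of interferon-stimulated antiviral genes and of cytokines were highest in library 2 of every group, and those of CXC chemokines were not. A shared deviation of single lists was not tested. The all-library fit lost 23 of the 197 named genes called, and the loss stands beside the values of those described above. The edgeR test on recovered reads was not run, because too few values came out as whole reads, and the motif alternative was not run because that comparison was void. Genes near 1 CPM rest on few reads, and p-values rest on 3 libraries a group.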

Other observations

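Several gene families were described as families only after their values were seen. Ms4a1, H2-Q7, H2-T23, Trim30a and 4 subunits of the proton pump also stand in the lists above, so those members are counted in both places. Of the Ms4a family, which encodes membrane proteins with 4 spans, 10 of 11 tested members were higher (median log2 difference 2.82), against 20.3% of all genes tested. The Schlafen family (Slfn) had 7 of 8 higher (median 2.79), and the nonclassical H2-Q and H2-T genes had 8 of 9 higher (median 3.72). All 4 Trim30 genes, all 4 Phf11 genes and all 3 Sirpb1 genes were higher, with medians of 4.28, 4.21 and 4.88. The formyl peptide receptors Fpr1 and Fpr2, which sense bacterial peptides, were both higher, by 5.63 to 5.74, and 5 of 6 Ly6 genes were higher (median 4.40), of which Ly6i and Ly6d passed the filter only through the LPS libraries. Several of these families hold near-identical copies, among them H2-Q6 with H2-Q7 and Sirpb1a with Sirpb1b and Sirpb1c, so reads may be divided between members. Subunits of the vacuolar proton pump had 7 of 19 lower with LPS (median -0.20), against 19.9% of all genes tested, and the other 12 were not called.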
